A study of Mus musculus with 24 samples.

Results

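Polycomb repressive complex 1 (PRC1) is a group of chromatin complexes built on RING1A or RING1B, which place ubiquitin on histone H2A. Its canonical forms (cPRC1) add a CBX protein, a PHC protein and PCGF2 or PCGF4 (BMI1) to that core. The CBX chromodomain binds H3K27me3, the mark written by Polycomb repressive complex 2 (PRC2), and the PHC proteins polymerise through a SAM domain and link distant Polycomb domains. The genes described here are the CBX subunits Cbx2, Cbx6, Cbx7 and Cbx8 and the PHC subunits Phc1, Phc2 and Phc3, a list of 7 symbols chosen by name. 6 of the 7 had a row in a table of 20633 transcripts and 19409 symbols, and all 6 passed the filter on low counts. Where a symbol had several rows, the row with the most reads was used. Cbx6 had no row of its own.

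Expression was measured by calibrated RNA-seq (cRNA-seq), in which Drosophila SG4 cells were mixed into the mouse cells before RNA was extracted. The mouse cells were embryonic stem cells (ESCs) of the E14 strain in 2 lines, each a single clone, and both carry Rosa26::ERT2-Cre, a Cre recombinase that 4-hydroxytamoxifen (OHT) activates. PRC1CKO (clone B9) lacks Ring1a and has floxed Ring1b, so OHT removes RING1B as well. PRC1CPM (clone 41) carries the I50A and D53K changes in RING1A with or without OHT, and OHT switches its RING1B from wild type to the I53A and D56K form, which leaves PRC1 assembled but without catalysis. Each line was profiled before OHT and following 72 h of it at 800 nM, in 3 libraries a condition and 12 in all, and no condition had unmodified RING1A. Cells grew on gelatin in serum with leukemia inhibitory factor. Libraries held between 14668159 and 27016156 reads on gene bodies. Values are normalised read counts, the reads over a gene body divided by a spike-in size factor. Log2 fold changes were fitted on log2(normalised read count + 1), where the added 1 draws the values of low genes together, and calls needed both a fold change above 1.5 and an adjusted p below 0.05.

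The ESC label was checked against marker genes. All 10 ESC markers passed the filter, with Esrrb the most abundant at a mean of 10208, and their sum went from 66760 ± 9622 (SD, n = 3) to 52440 ± 3899 in PRC1CKO and from 55686 ± 6050 to 52374 ± 11367 in PRC1CPM cells. After OHT 3 of them were called lower in PRC1CKO (Sox2, Utf1 and Fgf4) and 1 in PRC1CPM (Fgf4). Beside this and the marker counts that follow, 16.5% of all transcripts tested were called higher and 3.09% lower in PRC1CKO cells. In PRC1CPM cells the shares were 13.1% and 1.4%. Markers of other lineages were not absent. The summed primitive endoderm markers stood at 761 ± 402 in untreated and 3102 ± 604 in OHT-treated PRC1CKO cells, and at 415 ± 51.6 and 1390 ± 317 in PRC1CPM cells, with 5 and 6 of 6 markers called higher and Pdgfra the most abundant. The summed trophoblast markers went from 182 ± 104 to 673 ± 173 and from 181 ± 98.9 to 546 ± 198, and 3 and 4 of the 4 tested were called higher, with Eomes the most abundant. Of 5 neural progenitor markers, 3 were called higher and 1 lower in PRC1CKO cells and 2 higher in PRC1CPM cells, and the sum, led by Nes, went from 1444 ± 573 to 2206 ± 178 and from 1632 ± 145 to 2030 ± 585. Fibroblast markers were led by Col1a1, whose list summed to between 2039 and 5704 in PRC1CKO libraries and between 3717 and 14757 in PRC1CPM libraries, while Lum and Dcn did not pass the filter. No fibroblast list member was called in PRC1CPM cells, and in PRC1CKO cells Thy1 was called higher and Postn lower. The part of these lineage genes in the changes of the CBX and PHC genes was not tested, and a change in the number of cells of a type cannot be told apart from a change in RNA per cell.

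Following OHT treatment of PRC1CKO cells, 4 of the 6 CBX and PHC genes changed, and they did not move one way: Cbx8 and Phc2 rose, while Phc1 and Cbx7 fell. Over all 16940 transcripts tested, 16.5% were called higher and 3.09% lower in this comparison. In PRC1CPM cells Cbx8 and Phc2 again rose and Phc1 fell, against a background of 13.1% higher and 1.4% lower. The median log2 fold change of the 6 genes was 0.28 in PRC1CKO and 0.17 in PRC1CPM cells, beside 0.12 and 0.10 over all transcripts. Libraries of treated and untreated cells did not overlap for 3 members higher and 2 lower in PRC1CKO cells, beside 22.1% and 8.52% of all transcripts, and for 3 higher and 1 lower in PRC1CPM cells, beside 18.7% and 3.7%.

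**Figure D1:**
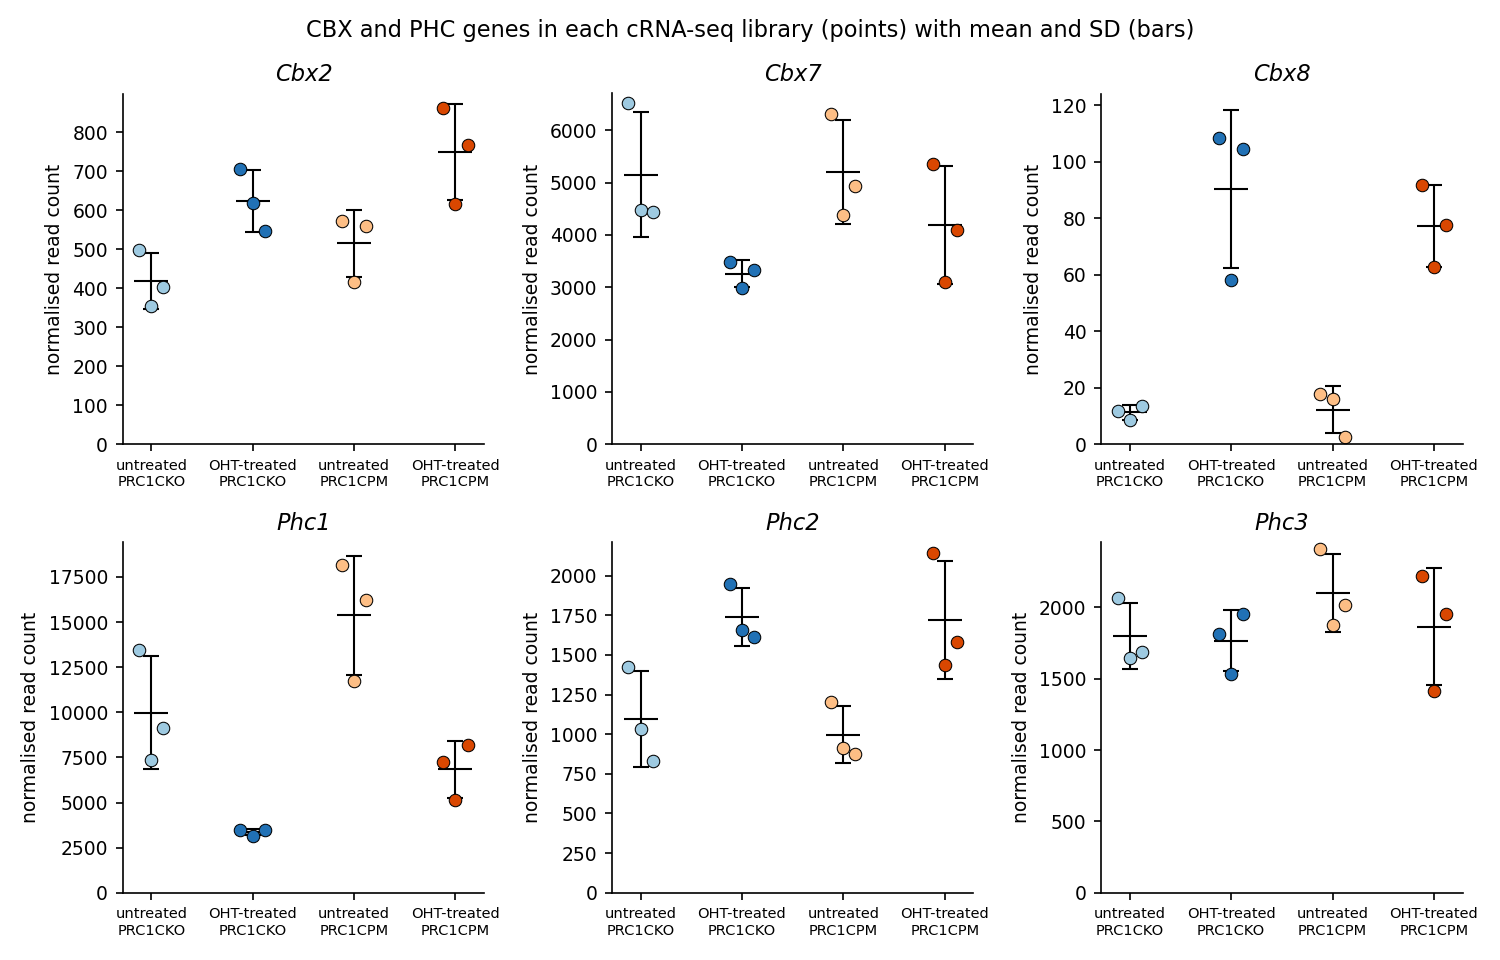
Normalised read count (y axis, linear from 0) of each CBX and PHC gene in every cRNA-seq library (points) of the 4 conditions, with the mean (dash) and SD (bars, n = 3). Cbx8 stands between 2.71 and 17.9 in untreated and between 58.3 and 108 in OHT-treated libraries, and Phc1 lies lower in the OHT-treated libraries of both lines.

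The upstream DNA of the genes that changed is shown because they moved in opposite directions. RefSeq start sites of GRCm38.p6, the build of the deposited coordinates, gave windows for 6 of the 7 genes. The set of windows used here held none for Cbx2, although that gene has a RefSeq transcript (NM_007623). Each sequence holds the 250 bases before a start, read 5′ to 3′ on the gene's strand, with CACGTG in capitals. CACGTG is the E-box that MAX and MGA, subunits of a variant PRC1, are known to bind. Cbx8 is chr11:119040914-119041163 on the minus strand, Phc2 is chr4:128654452-128654701 on the plus strand, Cbx7 is chr15:79932647-79932896 and Phc1 is chr6:122340228-122340477, both on the minus strand.
Cbx8: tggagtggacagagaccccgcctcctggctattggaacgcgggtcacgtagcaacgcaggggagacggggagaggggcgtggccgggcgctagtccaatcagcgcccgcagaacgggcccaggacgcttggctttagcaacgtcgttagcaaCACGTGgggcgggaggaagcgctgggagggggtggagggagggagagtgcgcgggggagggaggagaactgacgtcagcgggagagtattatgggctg
Phc2: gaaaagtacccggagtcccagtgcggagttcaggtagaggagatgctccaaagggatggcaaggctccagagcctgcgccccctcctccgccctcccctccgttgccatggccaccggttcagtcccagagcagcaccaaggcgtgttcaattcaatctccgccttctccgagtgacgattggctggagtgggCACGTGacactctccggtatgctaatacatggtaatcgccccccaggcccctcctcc
Cbx7: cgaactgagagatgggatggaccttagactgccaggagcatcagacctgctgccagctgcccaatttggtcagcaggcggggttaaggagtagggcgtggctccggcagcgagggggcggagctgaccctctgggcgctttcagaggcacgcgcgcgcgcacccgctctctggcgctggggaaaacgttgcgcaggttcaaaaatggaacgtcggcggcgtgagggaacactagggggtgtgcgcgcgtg
Phc1: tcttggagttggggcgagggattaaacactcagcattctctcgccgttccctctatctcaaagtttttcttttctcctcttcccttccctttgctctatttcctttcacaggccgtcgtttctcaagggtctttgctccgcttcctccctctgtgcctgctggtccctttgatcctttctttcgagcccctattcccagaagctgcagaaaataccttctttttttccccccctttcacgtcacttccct
The letters CACGTG, the same on both strands, were found in the windows of 4 genes, Cbx6, Cbx8, Phc2 and Phc3, and not in those of Cbx7 and Phc1. Of all 32807 windows of the same length 6.02% held them, and of the 12395 with 10 or more CpG 9.37%. In Cbx8 they began 98 bases and in Phc2 57 bases before the start, and in Phc3, whose level was not called changed, 82 bases before it. GCGGGAA, a form of the E2F site, searched on both strands, was in none of the 8 windows of these genes. It was in 3.81% of all windows and in 8.26% of those with 10 or more CpG. The Cbx8 window held 22 CpG, that of Cbx7 23, the Phc2 window shown 13 and that of Phc1 8, beside a median of 6 over all windows. The Phc1 window belongs to a start 570 bases from that of the deposited transcript. The 2 other Phc2 windows, which start shorter transcripts, held no E-box, and they had 1 and 34 CpG. These matches describe the letters and were not tested against binding.

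Cbx8 encodes a CBX subunit that is scarce in ESCs, and it had the largest rise among the 6 genes. Its gene body (NM_013926, chr11:119038436-119040913, minus strand) had 11.9, 8.47 and 13.5 normalised reads in the untreated PRC1CKO libraries and 108, 58.3 and 105 in the OHT-treated ones. All treated libraries lay above all untreated ones. The log2 fold change was 2.86 ± 0.49 (SE), or 7.28-fold, with an adjusted p of 5.69e-06 by limma. In PRC1CPM cells the untreated libraries had 17.9, 16 and 2.71 and the OHT-treated ones 91.7, 62.6 and 77.8, again without overlap. That change was 2.87 ± 0.49, or 7.30-fold, with an adjusted p of 1.12e-05. Untreated libraries held few Cbx8 reads, between 8 and 16 in PRC1CKO and between 2 and 17 in PRC1CPM cells, and without the PRC1CPM library of 2 reads (replicate 3) its change there was 2.11 with an adjusted p of 0.000909. With a pseudocount of 0.1 the log2 fold changes were 2.96 and 3.03, and with edgeR they were 3.00 and 2.62.

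Cbx2, which compacts nucleosomes, lies beside Cbx8 on chromosome 11 (NM_007623, chr11:119023029-119031270, plus strand, with 7.17 kb between the gene bodies). It was measured at 498, 354 and 404 normalised reads in untreated and 707, 618 and 548 in OHT-treated PRC1CKO libraries. In PRC1CPM cells it was at 572, 417 and 558 before and 863, 617 and 767 after OHT. The libraries did not overlap in either line, but the changes of 0.58 ± 0.24 (adjusted p = 0.0916) and 0.54 ± 0.24 (adjusted p = 0.157) passed neither the p nor the fold threshold by limma. With TMM scaling both had a lower adjusted p (0.00624 and 0.0131), as the PRC1CKO change had with DESeq2 (0.0459), but the log2 fold changes of 0.46, 0.43 and 0.58 stayed under the fold threshold. Without untreated PRC1CKO replicate 1 the change in that line was 0.71 with an adjusted p of 0.0255, and with the spike-in uncorrected for gDNA that in PRC1CPM cells was 0.83 (adjusted p = 0.0232).

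Cbx7 held most of the reads per kb of Cbx2, Cbx7 and Cbx8 in every condition, while Cbx6 could not be counted. Cbx7 is known as the main H3K27me3 reader of ESCs. Its row (NM_144811, chr15:79915807-79932646, minus strand) had 6526, 4476 and 4438 normalised reads in untreated and 3480, 2978 and 3329 in OHT-treated PRC1CKO libraries. The treated libraries all lay lower. The log2 fold change was -0.64 ± 0.21, a 1.55-fold fall, with an adjusted p of 0.0255 by limma. In PRC1CPM cells the values were 6314, 4380 and 4936 before and 5362, 3107 and 4101 after OHT. These overlapped, and the change of -0.33 ± 0.21 did not pass (adjusted p = 0.407). It ranged from -0.13 without OHT-treated replicate 2 to -0.53 without OHT-treated replicate 1, was -0.19 without untreated replicate 1 and -0.036 with the spike-in uncorrected for gDNA, and with TMM was -0.44, under the fold threshold at an adjusted p of 0.000629. Leaving out untreated replicate 1 (log2 fold change -0.45, adjusted p = 0.117), OHT-treated replicate 2 (-0.57, 0.112) or OHT-treated replicate 3 (-0.65, 0.0632) ended the PRC1CKO call, and so did testing without the filter on low counts (adjusted p = 0.119). The difference between the lines was 0.30 with a 95% interval from -0.30 to 0.91, so a smaller fall in PRC1CPM cells was not shown.

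For Cbx6 a direct value could not be given. The reads of its locus (chr15:79823898-79834333) fall inside the row of Npcd, a readthrough transcript of chr15:79786351-79834333 that joins Cbx6 to Nptxr. The Npcd row stood at 2256 ± 540 normalised reads in untreated and 2473 ± 44.2 in OHT-treated PRC1CKO cells, and at 2304 ± 399 and 2697 ± 591 in PRC1CPM cells, and its log2 fold changes of 0.16 and 0.22 were not called. The Nptxr row, which shares its last part, rose from 687 ± 188 to 1228 ± 116 in PRC1CKO cells (log2 fold change 0.87 ± 0.23, adjusted p = 0.00398 by limma) and from 857 ± 124 to 1457 ± 290 in PRC1CPM cells (0.76 ± 0.23, adjusted p = 0.0178). The reads of Npcd outside Nptxr, which hold Cbx6 and the stretch between the genes, went from 1569 ± 354 to 1245 ± 73.9 and from 1447 ± 275 to 1240 ± 303, with overlapping libraries in both lines. That difference is given as a description and not as a level of Cbx6.

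Phc1 encodes the PHC protein that ESCs make most of, and it fell in both lines. Its row (NM_001042623, chr6:122317731-122339657, minus strand) had 13454, 7361 and 9113 normalised reads in untreated PRC1CKO libraries and 3477, 3166 and 3457 after OHT. In PRC1CPM cells it had 18162, 11746 and 16204 before and 7233, 5121 and 8190 after OHT. In each line all treated libraries were below all untreated ones. The log2 fold change was -1.52 ± 0.21, a 2.87-fold fall, in PRC1CKO cells (adjusted p = 1.15e-07 by limma) and -1.17 ± 0.21, a 2.25-fold fall, in PRC1CPM cells (adjusted p = 4.26e-05). Both calls were made under every alternative that was run, with log2 fold changes from -1.72 to -1.28 and from -1.35 to -0.87. Klrg1, the 1 other gene within 100 kb, had a mean of 0.525 normalised reads and was not tested.

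Phc2 rose in both lines. Its longest row (NM_001195130, chr4:128654702-128752881, plus strand) had 1426, 1034 and 829 normalised reads in untreated and 1948, 1655 and 1616 in OHT-treated PRC1CKO libraries. In PRC1CPM cells it had 1206, 913 and 874 before and 2145, 1435 and 1584 after OHT. The libraries did not overlap in either line. Changes of 0.70 ± 0.23 (1.62-fold, adjusted p = 0.0223 by limma) and 0.78 ± 0.23 (1.72-fold, adjusted p = 0.0123) passed the test. Both shorter Phc2 rows, NM_018774 and NM_001195083, lie inside the longest and share its reads, and their changes were 0.71 and 0.77 in PRC1CKO and 0.86 and 0.90 in PRC1CPM cells. The PRC1CKO call was lost without untreated replicate 2 (log2 fold change 0.67, adjusted p = 0.0555), untreated replicate 3 (0.51, 0.215) or OHT-treated replicate 1 (0.61, 0.132), with the spike-in uncorrected for gDNA (0.54, 0.180), with no filter on low counts (adjusted p = 0.0820) and with TMM scaling, whose 0.58 fell under the fold threshold. The PRC1CPM call was lost without untreated replicate 3 (0.69, 0.0960) or OHT-treated replicate 1 (0.61, 0.109) and with no filter (adjusted p = 0.0694).

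Phc3 was not called changed in either line. Its row (NM_001165954, chr3:30899295-30969415, minus strand) had 2065, 1646 and 1684 normalised reads before and 1816, 1532 and 1952 after OHT in PRC1CKO cells, and 2409, 1875 and 2018 before and 2223, 1416 and 1955 after OHT in PRC1CPM cells. The libraries overlapped. The log2 fold changes were -0.03, with a 95% interval from -0.46 to 0.41, and -0.19, with an interval from -0.62 to 0.24, so that a rise or fall of the size seen for Phc1 lay outside both intervals.

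**Figure D2:**
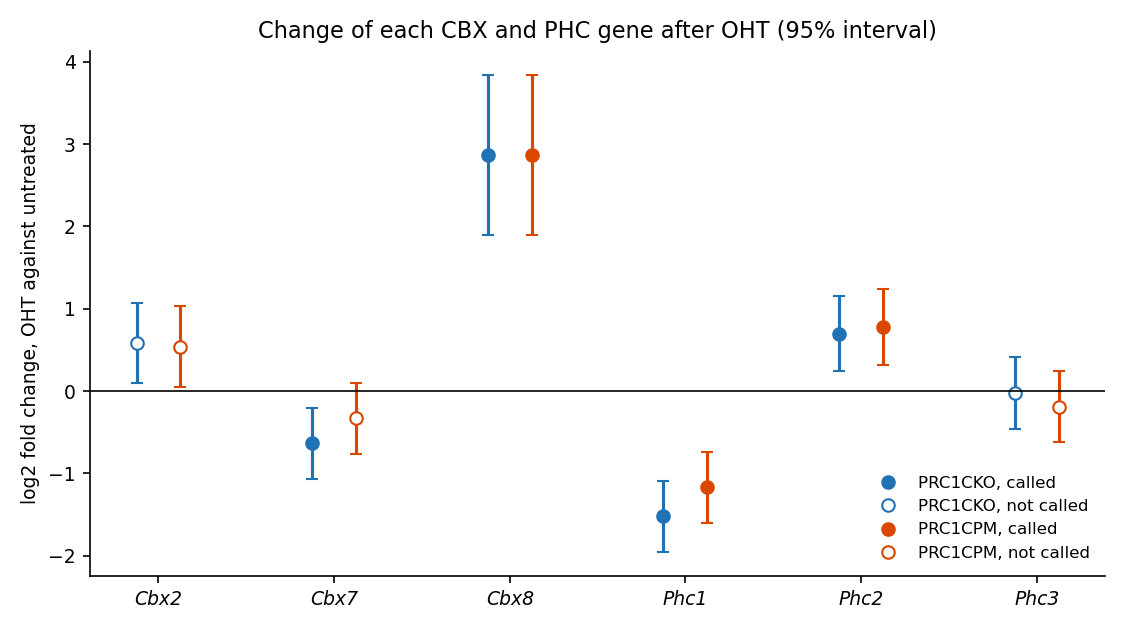
Log2 fold change of OHT-treated against untreated cells (y axis) for each CBX and PHC gene in PRC1CKO (blue) and PRC1CPM (orange) ESCs, with 95% intervals. Filled points passed the test; Cbx8 is near 2.86 in both lines, Phc1 is at -1.52 and -1.17, and Phc3 lies near 0.

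Per kb of gene body, introns included and with the longest Phc2 row, the order of the genes in untreated cells of both lines was Phc1, Cbx7, Cbx2, Phc3, Phc2 and Cbx8. In PRC1CKO cells Phc1 was at 455 ± 143 and Cbx7 at 306 ± 70.9 normalised reads per kb, with overlapping ranges, although Phc1 was above Cbx7 in each library. Cbx8 was at 4.56 ± 1.04 per kb in PRC1CKO and 4.93 ± 3.34 in PRC1CPM cells, the lowest of the 6. After OHT the order changed in PRC1CKO cells, where Cbx7 (194 ± 15.3 per kb) stood above Phc1 (154 ± 7.96) without overlap, whereas in PRC1CPM cells Phc1 (312 ± 71.6) and Cbx7 (249 ± 67.1) overlapped, with Phc1 again above Cbx7 in each library. Cbx8 passed above Phc3 and Phc2 in both lines, at 36.5 ± 11.3 and 31.2 ± 5.87 per kb, and its range overlapped that of Phc3 in both. In PRC1CPM cells the ranges of Phc3 and Phc2 overlapped as well. The place of Phc2 depended on its row. The shortest row, NM_001195083, spans 25.3 kb in place of 98.2 kb and held between 75.0% and 81.0% of the reads of the longest. By its own reads and length, a choice made after the data were seen, Phc2 was at 33.3 ± 9.94 per kb in untreated and 55.4 ± 5.00 in OHT-treated PRC1CKO cells and at 29.6 ± 6.86 and 55.1 ± 10.8 in PRC1CPM cells. On that row it overlapped Phc3 before OHT and lay above both Cbx8 and Phc3 in every OHT-treated library.

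The make-up of the PHC transcripts shifted with these levels. With the longest Phc2 row, Phc1 held 92.3% ± 1.32 of the PHC reads per kb in untreated and 78.2% ± 0.630 in OHT-treated PRC1CKO cells, and 94.5% ± 0.740 and 87.5% ± 1.76 in PRC1CPM cells. Phc2 went from 2.31% ± 0.490 to 9.02% ± 0.798 and from 1.39% ± 0.240 to 5.00% ± 0.994, and Phc3 from 5.40% ± 0.937 to 12.8% ± 0.932 and from 4.10% ± 0.510 to 7.49% ± 0.796, although the level of Phc3 itself was not called changed. With the shortest Phc2 row the share of Phc2 went from 6.58% ± 1.47 to 23.7% ± 2.03 and from 3.95% ± 0.874 to 14.2% ± 2.20, and that of Phc1 from 88.3% ± 2.08 to 65.6% ± 1.11 and from 92.1% ± 1.31 to 79.1% ± 2.78. With the longest row, the summed PHC level went from 492 ± 149 to 196 ± 11.6 per kb in PRC1CKO and from 741 ± 155 to 356 ± 78.2 in PRC1CPM cells. Among Cbx2, Cbx7 and Cbx8, Cbx7 held 84.5% ± 1.47 before and 63.4% ± 1.68 after OHT in PRC1CKO cells, and 82.0% ± 1.03 and 66.7% ± 2.24 in PRC1CPM cells. Cbx8 went from 1.29% ± 0.369 to 11.8% ± 2.83 and from 1.31% ± 0.903 to 8.48% ± 0.420, and Cbx2 from 14.2% ± 1.10 to 24.8% ± 2.84 and from 16.7% ± 1.80 to 24.8% ± 1.82. The levels of Cbx2 in both lines and of Cbx7 in PRC1CPM cells were not called changed, and a share moves when any member of its sum does. The summed level of these CBX genes was 361 ± 79.5 before and 306 ± 30.4 per kb after OHT in PRC1CKO cells and 377 ± 68.4 and 371 ± 87.8 in PRC1CPM cells, within the spread of the libraries. With 3 libraries against 3 an exact permutation test of such shares cannot go below p = 0.1, and none was run.

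**Figure D3:**
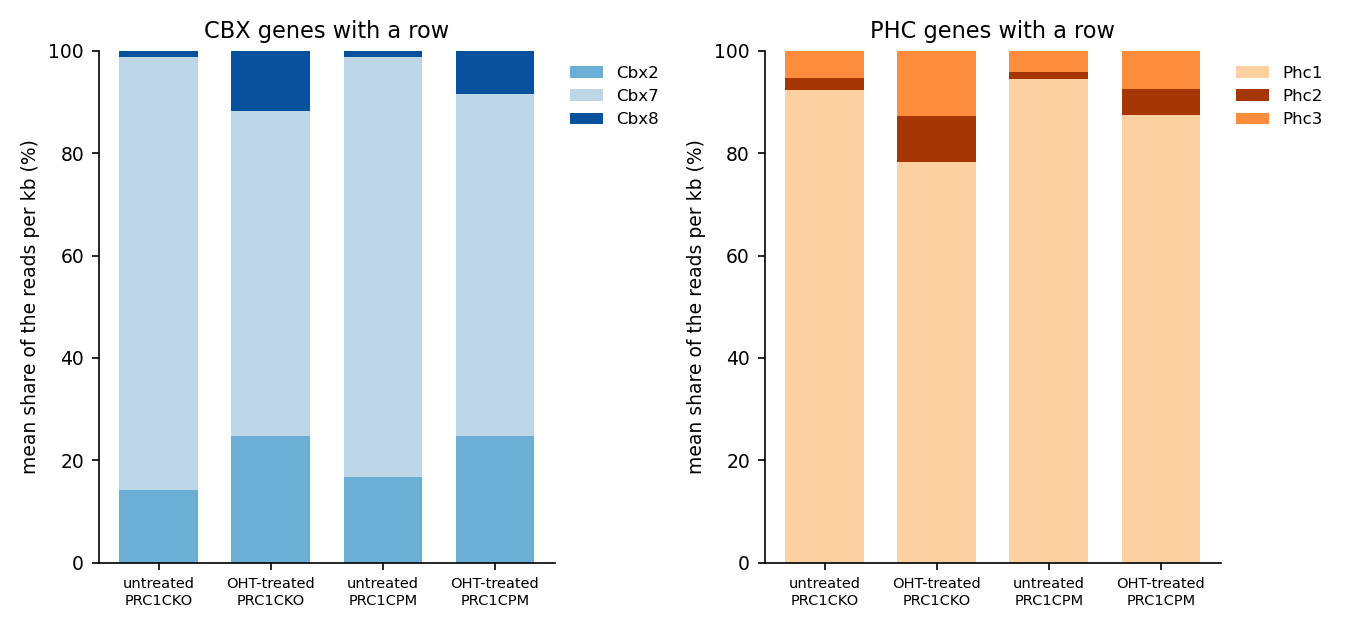
Mean share (y axis, %) of each gene in the normalised reads per kb of gene body of Cbx2, Cbx7 and Cbx8 (left) and of Phc1, Phc2 and Phc3 (right) in the 4 conditions (bars, mean of 3 libraries), with the longest Phc2 row. Phc1 goes from 92.3% to 78.2% of the PHC reads per kb in PRC1CKO and from 94.5% to 87.5% in PRC1CPM cells.

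Across the 42 other Polycomb and HP1 genes listed, 9 were called higher and 0 lower in PRC1CKO cells and 8 higher and 0 lower in PRC1CPM cells by limma, beside 16.5% and 13.1% of all transcripts called higher. Their median log2 fold changes were 0.14 and 0.06, beside 0.12 and 0.10 over all transcripts. Of the 8 RING1, PCGF and MBT genes among them, 3 rose in PRC1CKO and 2 in PRC1CPM cells, against the same shares of 16.5% and 13.1%. These counts take in Sfmbt1 and Sfmbt2, relatives of the Drosophila PhoRC subunit Sfmbt and not subunits of cPRC1, and of the 6 others 1 rose in each line, Bmi1. Bmi1, the PCGF4 gene, rose by 2.43 ± 0.28 and 1.33 ± 0.28 on the log2 scale, from 138 ± 34.2 to 730 ± 28.9 and from 181 ± 34.1 to 465 ± 127 normalised reads. Sfmbt2, an MBT-domain Polycomb gene, rose by 2.23 ± 0.25 and 0.95 ± 0.25, and its relative Sfmbt1 by 0.71 ± 0.21 in PRC1CKO cells. Pcgf2, the other PCGF gene of cPRC1, stood at -0.33 and -0.14 and was not called.

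The genes of RING1A and RING1B gave no check of the deletions by level. Ring1 was at 227 ± 76.3 normalised reads in untreated PRC1CKO cells, which lack RING1A, and at 162 ± 32.2 in untreated PRC1CPM cells. Rnf2, the RING1B gene, was at 1526 ± 201 and 1546 ± 50.8 in PRC1CKO cells before and after OHT and at 1696 ± 140 and 1511 ± 214 in PRC1CPM cells. Gene-body counts take in reads of exons outside a deleted or exchanged part. The labels were therefore used as given.

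Of 19 variant PRC1 genes, 4 were called higher in each line, a count not far from the 16.5% and 13.1% of all transcripts. Bcor, the scaffold of PRC1.1, rose by 2.08 ± 0.22 and 1.60 ± 0.22, and its relative Bcorl1 by 0.91 and 0.86. E2f6, of PRC1.6, rose by 0.93 and 0.83, and Auts2, of PRC1.3 and PRC1.5, by 1.05 and 0.87. Of 12 PRC2 genes, 2 were called higher in each line, close to those shares, namely Jarid2 (0.72 and 0.66) and Epop (0.95 and 0.84). The other 10, among them the methyltransferase genes Ezh2 (0.04 and 0.03) and Ezh1 (-0.43 and -0.35), were not called. The HP1 genes Cbx1, Cbx3 and Cbx5, whose chromodomains bind H3K9me3, had log2 fold changes between -0.53 and -0.03, and none was called. Beside these lists, Phc1 had the lowest log2 fold change in both lines and Cbx8 the highest.

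**Figure D4:**
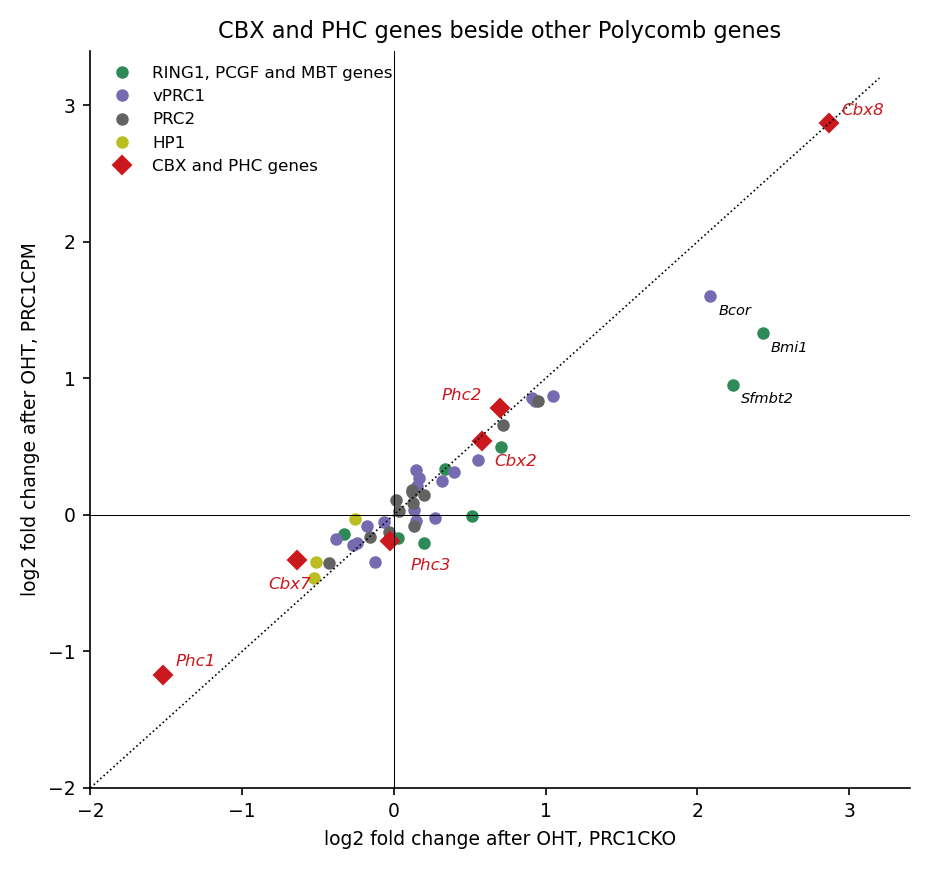
Log2 fold change after OHT in PRC1CKO (x axis) against PRC1CPM (y axis) ESCs for the CBX and PHC genes (red diamonds) and 42 other genes in 4 lists (circles), with a dotted line where both are equal. Cbx8 lies at 2.86 and 2.87, Phc1 at -1.52 and -1.17, and Bmi1, Sfmbt2 and Bcor lie to the right of the line.

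The lines were next compared with each other, which after OHT sets a clone with catalytically inactive PRC1 against a clone without PRC1. With a single clone for each line, the state of PRC1 cannot be told apart from other differences between the clones. These comparisons share libraries with those above. Phc1 was higher in OHT-treated PRC1CPM than in OHT-treated PRC1CKO cells by 1.00 ± 0.21 on the log2 scale, or 2.00-fold (adjusted p = 0.00457 by limma), and the libraries of 5121 to 8190 lay above those of 3166 to 3477. It was the 1 member called, beside 1.25% of all transcripts higher and 0.218% lower, and the 1 member whose libraries did not overlap, beside 11.9% higher and 4.35% lower. The other 5 members lay between -0.19 and 0.33 with adjusted p of 0.66 or more. Of the 42 other listed genes 1 was called between OHT-treated lines and the same one between untreated lines, Scml2 on chromosome X, which encodes a Polycomb protein with MBT repeats. After OHT it was at 903 ± 239 normalised reads in PRC1CPM and 333 ± 22.3 in PRC1CKO cells (SD, n = 3), a log2 difference of 1.41 ± 0.26 (adjusted p = 0.000842 by limma), and before OHT at 930 ± 343 and 238 ± 59.3, a difference of 1.93 ± 0.26. The Phc1 call was lost without OHT-treated PRC1CPM replicate 3 (0.86, adjusted p = 0.0641) and with no filter on low counts (adjusted p = 0.204).

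Before OHT, Phc1 was at 15371 ± 3288 in untreated PRC1CPM and 9976 ± 3137 in untreated PRC1CKO cells. That difference of 0.65 ± 0.21 did not pass the test (adjusted p = 0.0897 by limma), but was called with the replicate number as a block (adjusted p = 3.14e-05), and Phc1 was higher in PRC1CPM in each of the 3 same-numbered pairs. Taken without the numbers the libraries overlapped, as did those of the other 5 members, beside 9.23% of transcripts not overlapping and higher and 2.55% lower. None of the 6 members was called between untreated lines without the block by limma, edgeR or DESeq2, where 2.21% of transcripts were called higher and 0.478% lower by limma. Phc1 was the 1 member with an unadjusted p under 0.05 by limma, beside 2391 of the 16940 transcripts tested. With the block 1631 transcripts in place of 374 were called higher and 253 in place of 81 lower. Without untreated PRC1CKO replicate 1 the Phc1 difference was 0.88 (adjusted p = 0.00453) and without untreated PRC1CPM replicate 2 it was 0.83 (adjusted p = 0.0186), and both passed. It was smaller without untreated PRC1CKO replicate 2 (0.45, adjusted p = 0.550) and with the spike-in uncorrected for gDNA (0.36, adjusted p = 0.697). The median of the 852 tested transcripts of chromosome 6, where Phc1 lies, was 0.31 between the untreated and 0.30 between the OHT-treated lines, beside 0.12 and 0.10 over all transcripts, and Phc1 stood 0.33 and 0.70 above its chromosome. Chromosome 11, with Cbx2 and Cbx8, had medians of 0.45 and 0.42, and both genes lay below them. Between OHT-treated lines the marker genes Col1a1 (1.44, higher), Gata6 (-1.78) and Pdgfra (-1.04, both lower in PRC1CPM) were also called, and between untreated lines Col1a2 (1.38, higher), Tfcp2l1 (-0.88), Sox7 (-2.26) and Sox1 (-1.40, all 3 lower in PRC1CPM). The part of these differences in the Phc1 result was not tested.

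**Figure D5:**
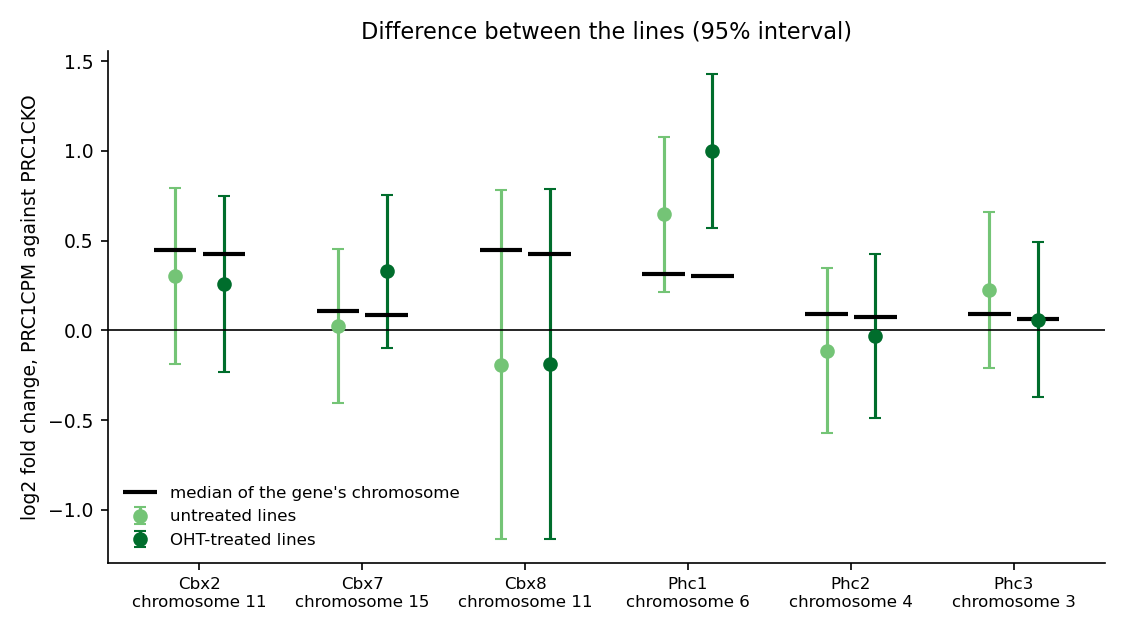
Log2 fold change of PRC1CPM against PRC1CKO cells (y axis) for each CBX and PHC gene, untreated (light) and OHT-treated (dark), with 95% intervals, and the median of all tested transcripts of the gene's chromosome (black dashes). Phc1 lies at 0.65 and 1.00, above the chromosome 6 medians of 0.31 and 0.30.

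The interaction of line and treatment asks whether OHT moved a gene by different amounts in the lines. None of the 6 members passed by limma, edgeR or DESeq2, and 0 had an unadjusted p under 0.05, beside 0.0236% of all transcripts called lower, 0% called higher and 2.93% at an unadjusted p under 0.05. With the replicate block 78 transcripts in place of 0 were called higher and 246 in place of 4 lower, with 1490 in place of 497 at an unadjusted p under 0.05, and again no member was called. The difference for Phc1 was 0.35 with a 95% interval from -0.26 to 0.96, and for Phc2 0.08 with an interval from -0.57 to 0.73. For Cbx8 the interval ran from -1.37 to 1.38. The intervals leave room for differences of this size, and equal responses were not shown.

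Over the 12 libraries, the transcripts whose log2 levels followed each changed member most closely were taken by Pearson correlation, as a description of libraries that share treatment and scaling. For Cbx8 they were Trhde (r = 0.987), the noncoding Lhx1os (0.981) and the pancreatic homeobox gene Pdx1 (0.970), whose log2 fold changes after OHT ran from 2.82 to 5.17. For Phc1 they were Kctd19 (0.983), the deubiquitinase gene Usp28 (0.980) and the nucleoside transporter gene Slc28a1 (0.979). For Cbx7 they were Ppa2 (0.984), Msl2 (0.982) and Ppp3cb (0.982), and for Phc2 Cnksr1 (0.987), Erbb2 (0.980) and Heg1 (0.980). Between members, Phc1 and Cbx7 had r = 0.860 and Cbx8 and Phc2 0.853, while Phc1 and Cbx8 had r = -0.757.

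Genes within 100 kb of Cbx7, Phc2 and Phc3 were compared with them. Of 4 genes tested around Cbx7, Apobec3, 7.38 kb away, was called lower in PRC1CKO cells (-0.88 ± 0.27, adjusted p = 0.0133 by limma), as Cbx7 was. Apobec3 was not called in PRC1CPM cells (-0.49 ± 0.27). D730005E14Rik, a gene named after its values were seen, was called lower in PRC1CPM cells (-1.54 ± 0.48, adjusted p = 0.0193 by limma). In PRC1CKO cells it was at -0.68 ± 0.48 and was not called. Pdgfb, on the other side, was at -0.39 and 0.04 and was not called. Around Phc2, 1 of 4 genes tested was called, Csmd2, 87.0 kb away and also named after its values were seen, which rose by 1.54 ± 0.25 and 1.55 ± 0.25. A3galt2, nearest on one side, was at 0.55 and 1.72 and was not called, and Tlr12, nearest on the other, was not tested. None of the 3 genes tested around Phc3, Gpr160 and Prkci among them, was called in either line. Beside these counts, 16.5% of all transcripts were called higher and 3.09% lower in PRC1CKO cells, and 13.1% and 1.4% in PRC1CPM cells.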

How the data were processed

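The authors discarded rDNA reads with Bowtie 2, aligned the rest to mm10 and dm6 with STAR and then Bowtie 2, removed PCR duplicates from unique reads and counted reads in each gene body. The deposited table holds a normalised signal, which is reads divided by a DESeq2 size factor from Drosophila spike-in reads corrected by gDNA-seq. Its columns of the authors' own fold changes and p-values and a list of partially derepressed genes were not used.

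In each library 100% of values were whole multiples of a step within 0.02 of a read, which gave the reads. Because the values are normalised, limma 3.58.1 in R 4.3.3 was fitted to log2(value + 1) of 12 libraries, with a mean per condition, no block, trended moderation and Benjamini-Hochberg adjustment over 16940 transcripts with 10 or more reads in 3 libraries. Alternatives were edgeR 4.0.16, DESeq2 1.42.0, TMM, the spike-in without gDNA correction (from the study's read totals), no filter, a pseudocount of 0.1, a replicate block, another fold threshold, 1 transcript per symbol, a line alone, and leaving out each library. The fit was tried on simulated counts with 200 genes changed, drawn independently for each library. That trial does not show how the fit treats libraries that deviate together. Intervals are 95%, from the SE and limma's moderated t distribution. The 12 gDNA-seq samples were not analysed here. Replicates are numbered in the labels, which do not say what a number marks. Deviations of same-numbered libraries from their condition means correlated at over 0.1 in 17 of 18 pairs (mean 0.205) and at 0.0988 in the other, of PRC1CKO cells before and after OHT, while the 36 other pairs had a mean of -0.102. The p-values rest on the spread between replicate libraries, moderated toward a trend over all transcripts. Each line was a single clone, so they do not measure a spread between clones. The named genes were the members, listed genes called after OHT, RING1 and PCGF genes, neighbours and the 3 most alike. The results of 1 gene of these rules are not reported here. Members and lists were chosen with earlier results of these data known.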

Additional observations from a re-analysis of the deposited data

How the results depend on the processing

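The changes of Cbx8 and Phc1 after OHT kept their direction and call in both lines under all 21 alternatives. Those of Cbx7 and Phc2 kept their direction, but the calls of Cbx7 in PRC1CKO cells and of Phc2 in both lines were lost under some, and the cause was not tested. The members called higher after OHT in PRC1CKO cells numbered 2, and 1 with TMM, the spike-in without gDNA-seq correction, no filter or a fold above 2, and between 1 and 3 with a library left out. Those called lower numbered 2, and 1 with no filter or a fold above 2, and between 1 and 2 with a library left out. In PRC1CPM cells 2 were called higher, and 1 with no filter or a fold above 2, 3 with the spike-in without gDNA-seq correction, and between 1 and 2 with a library left out. Between OHT-treated lines 1 was called higher, and 0 with no filter or a fold above 2, and between 0 and 1 with a library left out. Between untreated lines none was, and 1 with the replicate block and between 0 and 1 with a library left out. Other Polycomb genes called numbered 9 in PRC1CKO cells, 4 with a fold above 2 and between 7 and 11 with a library left out, and 8 in PRC1CPM cells, 4 with no filter, 2 with a fold above 2 and between 6 and 8 with a library left out.

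The calls over all transcripts moved as well. With no filter, 2200 in place of 2787 were called higher and 346 in place of 524 lower in PRC1CKO cells, and 1557 in place of 2226 higher and 144 in place of 237 lower in PRC1CPM cells. Between OHT-treated lines 212 were called higher, and 58 with no filter, 345 with DESeq2, 524 with TMM and 441 with the spike-in uncorrected. Between untreated lines 374 were called higher, and 103, 493, 745 and 130. With a library left out, those called higher in PRC1CKO cells numbered between 2017 (without untreated PRC1CKO replicate 3) and 3729 (without untreated PRC1CKO replicate 1), and in PRC1CPM cells between 1435 (without OHT-treated PRC1CPM replicate 1) and 2547. Between OHT-treated lines they numbered between 82 (without OHT-treated PRC1CPM replicate 1) and 399 (without untreated PRC1CKO replicate 1), and 134 without OHT-treated PRC1CPM replicate 3. Between untreated lines they numbered between 170 and 1491 (without untreated PRC1CKO replicates 3 and 1). Those called lower numbered between 325 (without untreated PRC1CKO replicate 1) and 673 in PRC1CKO cells, and between 121 (without OHT-treated PRC1CPM replicate 2) and 339 (without untreated PRC1CPM replicate 2) in PRC1CPM cells. A fold above 2 calls fewer transcripts by construction.

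With the replicate block Phc1 was called between untreated lines (adjusted p = 3.14e-05), and Cbx2 in both lines (0.000711 and 0.00241) and Cbx7 in PRC1CPM cells (0.0375) passed the p but not the fold threshold. The block changed no other count of members called. Over all transcripts it raised the calls between OHT-treated lines from 212 to 1131 higher and from 37 to 232 lower, and after OHT those lower from 524 to 823 in PRC1CKO and from 237 to 461 in PRC1CPM cells. TMM moved the median of all transcripts after OHT from 0.12 to -0.00 in PRC1CKO and from 0.10 to -0.01 in PRC1CPM cells and called 2845 higher and 1133 lower in PRC1CKO cells, in place of 2787 and 524, and 2396 and 595 in place of 2226 and 237 in PRC1CPM cells. Without the gDNA-seq correction these medians were -0.04 and 0.39, with 2132 and 3428 called higher and 666 and 68 lower.

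Signs turned only for log2 fold changes that did not pass the test. With the spike-in uncorrected these were Phc3 in PRC1CPM cells (0.11), Phc2 between OHT-treated lines (0.14), Cbx7 (-0.26) and Phc3 (-0.058) between untreated lines, and the interactions of Cbx2 (0.41) and Phc3 (0.29). With TMM they were Phc3 between OHT-treated (-0.042) and Cbx7 between untreated lines (-0.089). With edgeR and DESeq2 Cbx8 between untreated lines came to 0.16 and 0.16 and its interaction to -0.38 and -0.38. Leaving out libraries gave ranges across 0 for Phc3 in PRC1CKO cells (-0.10 to 0.078), between OHT-treated lines for Phc2 (-0.20 to 0.089) and Phc3 (-0.079 to 0.25), between untreated lines for Cbx7 (-0.12 to 0.21), Cbx8 (-0.61 to 0.57) and Phc2 (-0.30 to 0.093), and for the interactions of Cbx2 (-0.19 to 0.089), Cbx8 (-0.75 to 0.42), Phc2 (-0.13 to 0.27) and Phc3 (-0.30 to 0.022). Depth limits Cbx8, whose untreated libraries hold between 2 and 17 reads.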
